A study of Macaca fascicularis with 6 samples.

Results

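Cytosolic sulfotransferases and the synthases of their sulfate donor were followed in liver of cynomolgus macaques (Macaca fascicularis) given vehicle or an LXR ligand. The family comprised 9 genes: SULT1A1, SULT1A2, SULT1B1, SULT1C2, SULT1E1, SULT2A1 and SULT2B1, with the synthases PAPSS1 and PAPSS2. Every probe set that the annotation gave to 1 of these symbols alone was taken, which yielded 17 probe sets for 8 of the 9 genes, among 19775 genes named on the array in the same way. SULT1A2 had no probe set named in the annotation used here and was not analysed. The genes were selected by function and from ligand-against-vehicle signals of these same arrays that were already known. Their differences between the groups are therefore a description and carry no p-value.

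Each of 6 arrays was taken to carry liver RNA of a separate animal, because the array titles are numbered within each group. The vehicle group had 3 arrays and the group labelled LXR, whose array titles hold the unexplained letters GW, had 3. Both groups are whole liver of the same species, with no genotype or strain label, and the age, sex, dose, duration and ligand identity were not given in the sources used here. The array was designed against human transcripts, so macaque RNA was read by human probes. Of the 9 member symbols, 6 are also symbols of the RefSeq annotation of the macaque (T2T-MFA8v1.1), against 88.8% of the genes tested. SULT1A1, SULT1A2 and SULT1C2 are not among them, and which macaque transcripts the SULT1A1 and SULT1C2 probe sets read was not tested. In that annotation, SULT1E1 and SULT1B1 are neighbouring protein-coding genes.

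Sulfotransferases of the SULT family are soluble enzymes that move a sulfonate group from the donor PAPS onto a hydroxyl or amine of a small molecule. The product is more soluble in water and, for many hormones, no longer binds its receptor. Both PAPS synthases make the donor from inorganic sulfate and ATP. In liver these enzymes clear phenolic drugs, thyroid hormone, oestrogens, adrenal steroids and bile acids. LXR is a nuclear receptor for oxidised cholesterol, and oxysterols are themselves substrates of the SULT2 enzymes.

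Whole-liver identity was clear on every array, with the summed signal of 11 hepatocyte markers, albumin among them, at 763130 to 882547 with vehicle and 803331 to 871998 with the ligand. The summed signal of 12 LXR target genes was 19069 to 26348 with vehicle and 27791 to 37960 with the ligand, 2 ranges that did not overlap. Of the 12, 10 had a higher mean with the ligand and 2 a lower one. Groups did not overlap for 5, all higher, against 5.99% of all probe sets tested. The largest parts of the sum were SMPDL3A, with vehicle and ligand means of 8357 and 7251, and ABCG5, with 4927 and 6776, both with overlapping groups. Summed signals of 9 measured macrophage markers did not overlap either, at 11287 to 15233 with vehicle and 19272 to 25114 with the ligand, and all 9 had a higher mean with the ligand. On the first principal component, ligand array 1 lay at -89.8 and the other 5 arrays between 0.632 and 36.8. RNA quality, read as log2 of the 3' over the 5' control signal, had group means of 1.34 with vehicle and 1.53 with the ligand for GAPDH (exact two-sided permutation p = 0.6) and of 2.57 and 3.09 for ACTB (exact two-sided permutation p = 0.4), where the smallest p that 3 against 3 allows is 0.1. Ligand array 3 had the highest log2 ratio for both controls, at 2.052 for GAPDH and 4.003 for ACTB. The other 5 arrays lay at 0.992 to 1.70 for GAPDH and 2.15 to 3.06 for ACTB, so RNA quality was not even across arrays. In bulk tissue, fewer cells of a type and less RNA per cell cannot be told apart. The part of macrophage content and of RNA quality in the values below was not tested.

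Across the whole array, 0 of 27304 probe sets tested passed limma's moderated test at an adjusted p of 0.05 (0% called), while 1523 (5.58%) had an unadjusted p under 0.05. Of the 17 member probe sets, 13 were bright enough to be tested and 4 were too dim: 3 of SULT1C2 and the only set of SULT2B1. Counted over all 17, the ligand mean was higher on 8 and lower on 9, the median log2 difference being -0.038, beside 50.3% higher and a median of 0.0032 over all probe sets tested. All 3 ligand arrays lay above all 3 vehicle arrays on 4 of the 17, which were 3 sets of SULT1A1 and 1 of SULT1C2. The same held for 5.99% of all probe sets tested. None of the 17 lay lower on every ligand array, against 4.96% of all probe sets tested. Since known ligand differences entered the choice of genes, nothing is read from these counts.

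**Figure D1:**
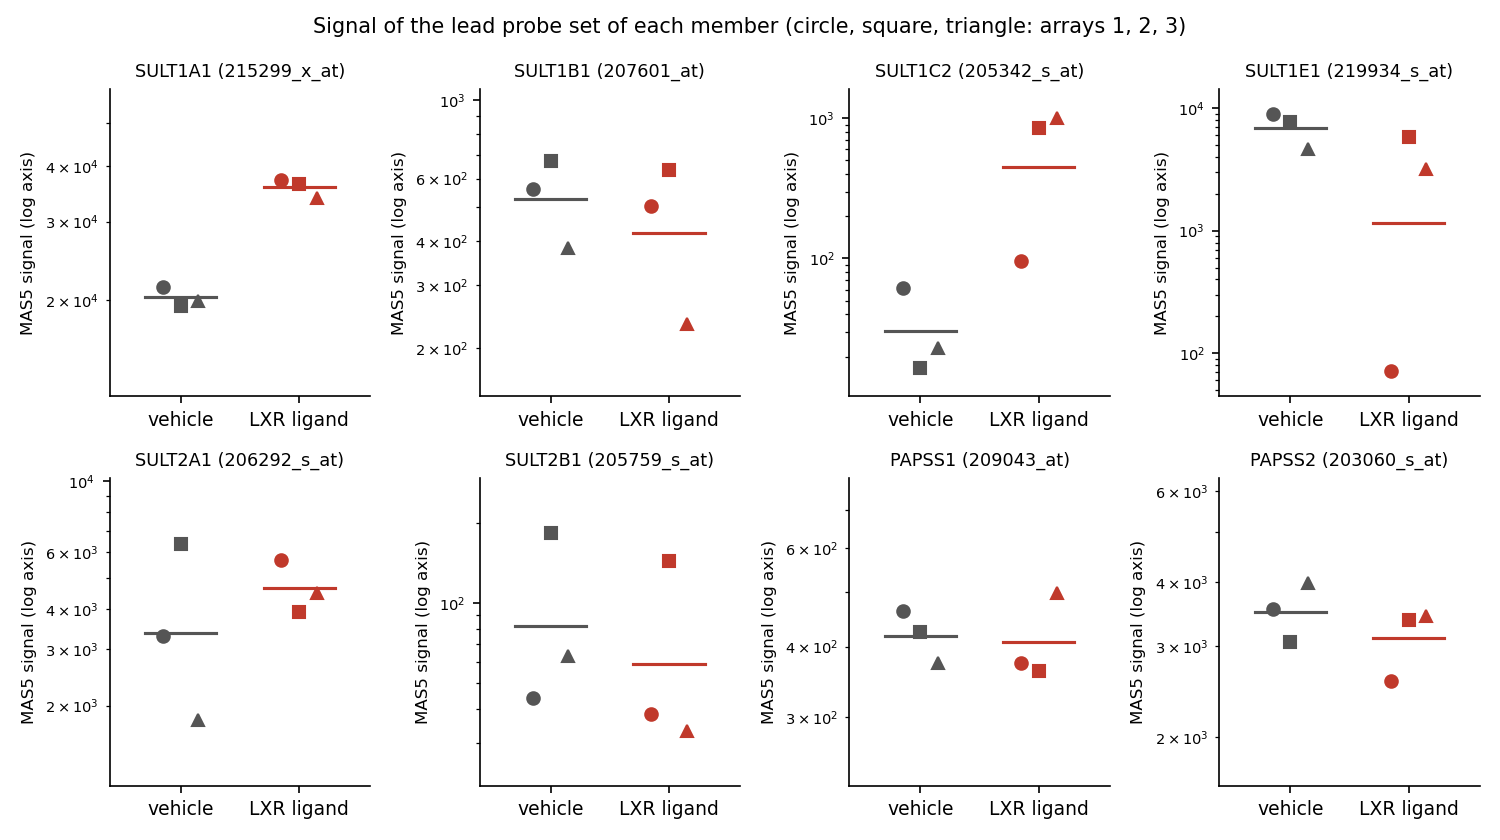
MAS5 signal on a log axis for the brightest probe set of each of the 8 measured members, with vehicle arrays in grey, ligand arrays in red, and lines at the mean of the log2 values. The groups do not overlap for SULT1A1 and SULT1C2, ligand array 1 (circle) is far below the rest for SULT1E1, and the groups overlap for the other members.

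SULT1A1, the phenol sulfotransferase that handles paracetamol, catechols and small phenolic drugs, was the member with the most even difference between the groups. Its brightest probe set, 215299_x_at, read 21409, 19409 and 19922 in vehicle animals 1 to 3, and 37261, 36396 and 33961 in ligand animals 1 to 3. The groups were far apart relative to their own scatter, with means of 20247 ± 1039 and 35872 ± 1711 (SD, n = 3 per group). The log2 difference was 0.82 ± 0.15 (SE), or 1.77-fold. The within-group SD on the log2 scale was 0.071, and 99.5% of all probe sets tested had a larger one.

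The other SULT1A1 probe sets were also higher on each ligand array. Set 203615_x_at read 21449, 18713 and 19365 with vehicle and 36120, 37219 and 35196 with the ligand, a log2 difference of 0.87 ± 0.15 (SE). It followed the first set closely, with Pearson's r of 0.997 over the 6 arrays, given as a description. The suffix _x_at marks sets in which some probes also match other transcripts, so these 2 sets may share targets and are not independent readings. Set 238995_at, which lacks that suffix, was much dimmer, at 461, 318 and 449 with vehicle and 594, 831 and 519 with the ligand. Its log2 difference was 0.63 ± 0.29 (SE), and its groups overlapped once each array was centred on its median.

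Probe sets shared by SULT1A3 and SULT1A4, close relatives that in humans sulfate dopamine and other monoamines, are reported apart, because 4 sets carry both symbols with others and cannot be assigned to either gene. Set 209607_x_at read 20342, 13315 and 16757 with vehicle and 41642, 41624 and 30048 with the ligand, a log2 difference of 1.17 ± 0.21 (SE). Set 210580_x_at read 6889, 6324 and 7114 with vehicle and 13935, 10655 and 10533 with the ligand, a log2 difference of 0.78 ± 0.18 (SE). Both had all 3 ligand animals above all 3 vehicle animals, as the SULT1A1 sets had. The remaining 2 shared sets, which are also annotated to SLX1A and SLX1B, were dimmer and their groups overlapped, with log2 differences of -0.80 ± 0.75 for 222094_at and 0.21 ± 0.46 for 233334_x_at (SE). Whether the SULT1A1 and shared sets read the same macaque transcripts was not tested.

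**Figure D2:**
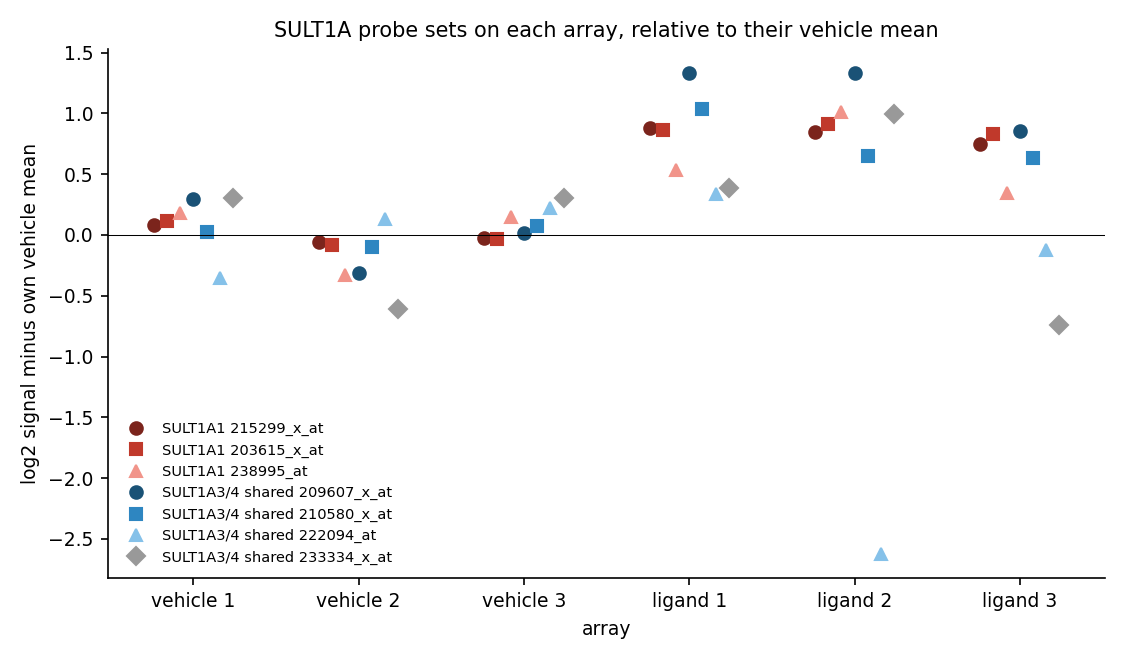
Log2 signal of each SULT1A probe set on each of the 6 arrays, minus that set's own vehicle mean, with SULT1A1 sets in red shades and sets shared by SULT1A3 and SULT1A4 in blue and grey. The 3 SULT1A1 sets and the shared sets 209607_x_at and 210580_x_at are above their vehicle mean on all 3 ligand arrays, by 0.35 to 1.33, while 222094_at and 233334_x_at scatter.

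SULT1C2, a sulfotransferase of small phenols and hydroxyarylamines that is better known from stomach, kidney and fetal liver than from adult liver, had the largest log2 difference of the family with all 6 arrays. Without ligand array 2 or 3, that of SULT1E1 was larger in size (-3.70 against 2.88 and -3.27 against 2.76). Probe set 205342_s_at read 61.5, 16.6 and 23.0 in vehicle animals 1 to 3, against 96.4, 849 and 1010 in ligand animals 1 to 3. Ligand arrays 2 and 3 were thus far above the rest, while ligand array 1 was only slightly above vehicle array 1. The mean was 33.7 ± 24.3 in the 3 vehicle animals and 652 ± 488 in the 3 ligand animals (SD). On the log2(signal + 16) scale the difference was 3.33 ± 0.84 (SE), or 10-fold. All 3 vehicle signals were below the mean signal of 129 that a probe set needed for testing, so this set was tested only because of its ligand arrays, and its entry among the tested sets implies a difference. The size also rests on the pseudocount, at 3.88 with 1 and 2.49 with 64. Without ligand array 1 it was 4.35 and without ligand array 3 it was 2.76.

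The other 3 SULT1C2 probe sets were too dim to be tested and their groups overlapped. Set 211470_s_at read 47.5, 7.08 and 4.94 with vehicle and 21.6, 83.5 and 121 with the ligand, again highest on ligand arrays 2 and 3, with a log2 difference of 1.35 ± 0.65 (SE). Set 205343_at read 99.2, 21.1 and 25.1 with vehicle and 90.0, 132 and 98.0 with the ligand, a log2 difference of 1.12 ± 0.62 (SE). Set 240200_at read 9.65, 77.9 and 13.4 with vehicle and 29.1, 28.3 and 15.2 with the ligand, a log2 difference of -0.061 ± 0.55 (SE) whose sign turned to 0.081 with a pseudocount of 1. Over the 6 arrays, Pearson's r with 205342_s_at was 0.929 for 211470_s_at, 0.787 for 205343_at and -0.26 for 240200_at. On 205342_s_at, 211470_s_at and 205343_at, vehicle array 1 was the highest of the vehicle arrays.

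Among 22563 tested probe sets of other genes, the 5 with the pattern over the 6 arrays most like that of SULT1C2 belonged to MDM4, MTDH, AIM2, SH3BGRL3 and MELTF-AS1, with Pearson's r of 0.988 to 0.994. MDM4, a partner of p53, read 102, 80.2 and 90.1 with vehicle and 125, 194 and 218 with the ligand. AIM2, a sensor of cytosolic DNA, read 622, 471 and 489 with vehicle and 818, 1334 and 1338 with the ligand. Their shared order of arrays follows from the choice by correlation and is a description only. The vehicle signals of MDM4 and MELTF-AS1 were all below 129, so these sets, like that of SULT1C2, were tested only because of their ligand arrays.

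SULT1E1, the oestrogen sulfotransferase that inactivates oestradiol at low concentrations, had a wide spread on its brighter probe set, most of it within the ligand group. Probe set 219934_s_at read 8960, 7648 and 4673 in vehicle animals 1 to 3, against 71.0, 5788 and 3209 in ligand animals 1 to 3. Ligand array 1 was nearly empty of SULT1E1 signal, ligand array 3 was below all vehicle arrays, and ligand array 2 lay inside the vehicle range. The log2 difference of -2.54 ± 1.21 (SE) rested mainly on ligand array 1, and without it the value was -0.66. The log2 SD was 0.49 in the vehicle group and 3.28 in the ligand group. Pooled within the groups it was 2.35, and 0.022% of all probe sets tested had a larger pooled SD.

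The second SULT1E1 set, 222940_at, showed the same low array at a dimmer level, with 272, 208 and 207 with vehicle and 77.3, 188 and 348 with the ligand. Its log2 difference was -0.35 ± 0.51 (SE), or 0.16 without ligand array 1. Ligand array 1, the lowest for SULT1E1 on both sets, was the lowest ligand array for SULT1C2 set 205342_s_at as well, but not for SULT1A1.

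SULT1B1, a sulfotransferase of thyroid hormones and small phenols and the neighbour of SULT1E1, had overlapping groups. Its only probe set, 207601_at, read 563, 671 and 384 with vehicle and 501, 636 and 234 with the ligand. Array 3 was the lowest in each group, and the log2 difference was -0.31 ± 0.38 (SE). Without ligand array 3 it was 0.10. On this set and the brighter SULT1E1 set, vehicle array 3 was the lowest vehicle array and ligand array 2 the highest ligand array. The second SULT1E1 set did not share this order. Its highest ligand array was array 3, at 348, and its vehicle arrays 2 and 3 were nearly equal, at 208 and 207. The near-empty ligand array 1 of SULT1E1 was not low for SULT1B1.

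SULT2A1, the hydroxysteroid sulfotransferase of adrenal androgens and bile acids, had overlapping groups. Its brighter probe set, 206292_s_at, read 3292, 6387 and 1803 with vehicle and 5686, 3921 and 4488 with the ligand. The vehicle arrays held both the highest and the lowest value. The log2 difference was 0.46 ± 0.38 (SE), and it was 0.017 when vehicle array 3 was left out and 0.93 when vehicle array 2 was. The dimmer set 206293_at read 90.6, 160 and 201 with vehicle and 193, 141 and 164 with the ligand, a log2 difference of 0.18 ± 0.47 (SE), and its order of arrays did not match that of the brighter set (Pearson's r of -0.0091 over the 6 arrays).

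SULT2B1, which sulfates cholesterol and is best known from skin, was too dim to be tested. Its probe set 205759_s_at read 44.2, 184 and 63.3 with vehicle and 38.5, 144 and 33.1 with the ligand, with array 2 the highest in each group. The log2 difference of -0.39 ± 0.70 (SE) was smaller than its error, and it was 0.12 without vehicle array 2. Detection calls were not used here, so these signals cannot be told from background.

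**Figure D3:**
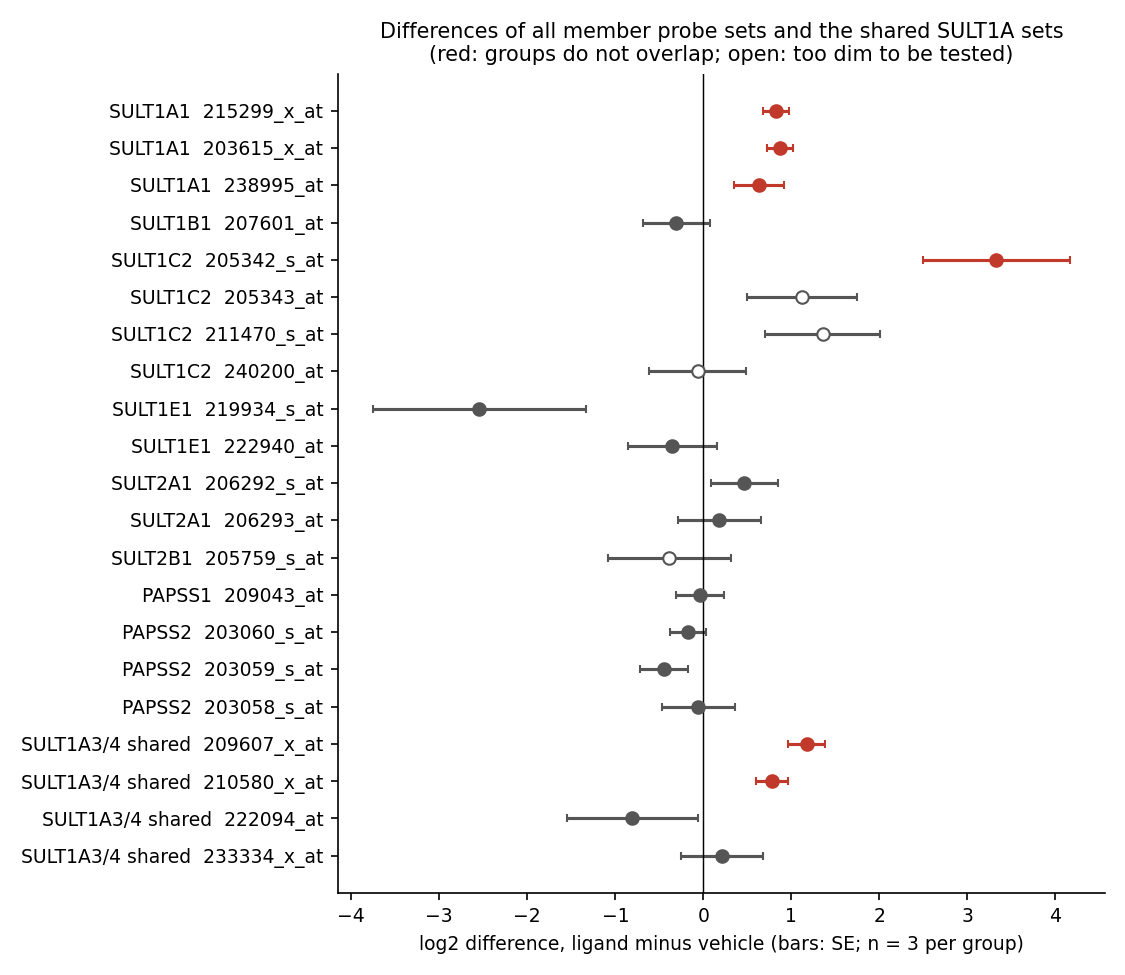
Log2 difference, ligand minus vehicle, with SE from the fit (n = 3 per group) for all 17 member probe sets and the 4 sets shared by SULT1A3 and SULT1A4. Red points are sets whose groups do not overlap and open points are sets too dim to be tested; the range runs from -2.54 for SULT1E1 to 3.33 for SULT1C2, and the 4 sets of the PAPS synthases lie between -0.45 and -0.038.

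The PAPS synthases, which set the supply of donor for every sulfotransferase, had overlapping groups on all 4 of their probe sets. PAPSS1, with its single set 209043_at, read 463, 425 and 374 with vehicle and 374, 362 and 498 with the ligand, a log2 difference of -0.038 ± 0.27 (SE). PAPSS2, the form whose loss impairs skeletal growth and androgen sulfation, had 3 tested sets. The brightest, 203060_s_at, read 3548, 3064 and 3977 with vehicle and 2575, 3377 and 3436 with the ligand, a log2 difference of -0.18 ± 0.21 (SE).

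The other PAPSS2 sets also had overlapping groups. Set 203059_s_at read 1694, 1645 and 2080 with vehicle and 1320, 1878 and 911 with the ligand, a log2 difference of -0.45 ± 0.28 (SE). Set 203058_s_at read 1254, 1325 and 1883 with vehicle and 655, 2158 and 1960 with the ligand, a log2 difference of -0.055 ± 0.41 (SE). Ligand array 1 was the lowest of the 6 on 203060_s_at and 203058_s_at, and ligand array 3 on 203059_s_at. Without ligand array 1 the difference of 203058_s_at was 0.49, with both remaining ligand arrays above all vehicle arrays. The within-group SD was 0.20 for PAPSS1 and 0.21 for the brightest PAPSS2 set, and 87.2% and 85.7% of all probe sets tested had a larger one.

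**Figure D4:**
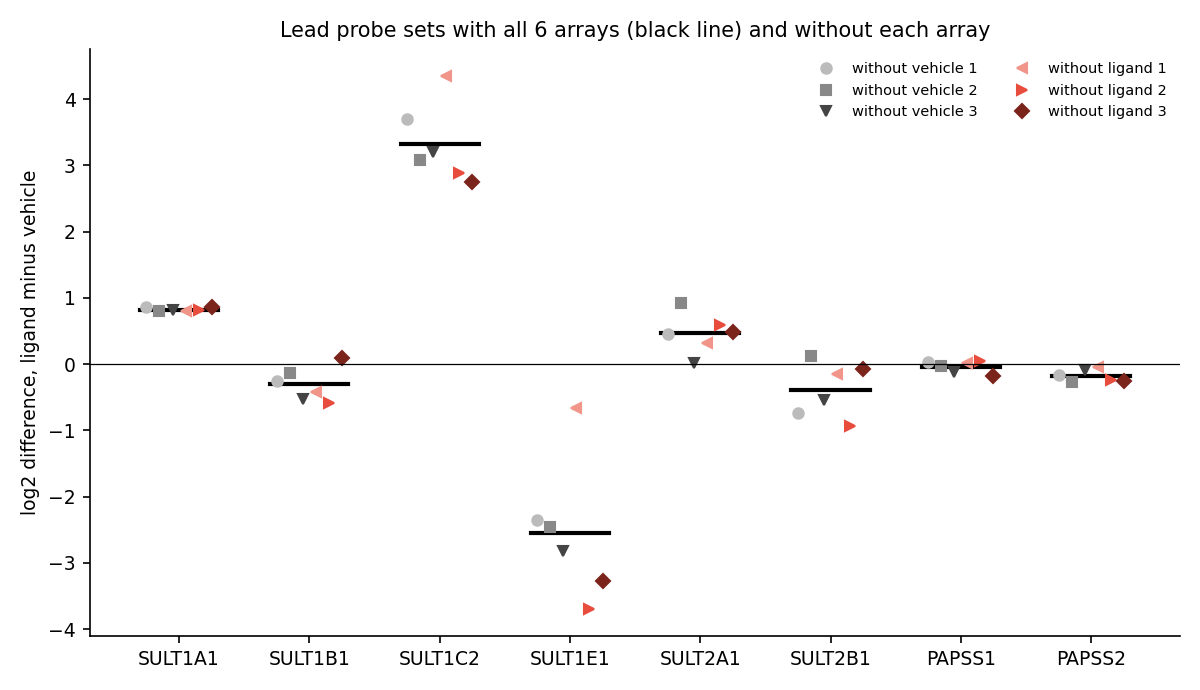
Log2 difference, ligand minus vehicle, of the brightest probe set of each measured member with all 6 arrays (black line) and with each array left out in turn (symbols). SULT1A1 stays between 0.80 and 0.87 and SULT1C2 between 2.76 and 4.35, SULT1E1 moves from -2.54 to -0.66 without ligand array 1, and SULT1B1, SULT2B1 and PAPSS1 change sign.

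Other genes of sulfation were taken from 7 lists of 92 distinct genes, of which 70 were measured by a tested probe set. Limma called 0 of the 70 at an adjusted p of 0.05, and 8 had an unadjusted p under 0.05, against 5.58% of all probe sets tested. Higher means with the ligand were found for 34 of the 70 and lower means for 36, and the median log2 difference was -0.014. Groups did not overlap for 2 higher and 5 lower genes of the 70, against 5.99% higher and 4.96% lower of all probe sets tested.

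The only other cytosolic sulfotransferase measured was SULT1C4, a relative of SULT1C2, which read 5207, 8006 and 6189 with vehicle and 4034, 4936 and 5300 with the ligand. Its log2 difference was -0.43 ± 0.21 (SE), of the opposite sign to that of SULT1C2, and its groups overlapped. For PAPS transport and the breakdown of its product PAP, 2 of 4 genes were measured. BPNT1, a phosphatase of PAP, had a log2 difference of -0.30 ± 0.32 (SE), and SLC35B3, which carries PAPS into the Golgi, 0.22 ± 0.52 (SE). Their other tested probe sets had -0.042 for BPNT1 and, with the opposite sign, -0.58 for SLC35B3.

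Among genes of sulfate uptake and its supply from cysteine, 7 of 14 measured genes were higher and 7 lower, with a median log2 difference of 0.040. CTH, which makes cysteine from cystathionine, had a log2 difference of -1.13 ± 0.38 (SE) and GOT1, an aminotransferase that also acts on cysteine sulfinate, -0.87 ± 0.29 (SE), each at a limma adjusted p of 0.829. SLC26A11 and SLC26A6, both anion transporters, had log2 differences of 0.73 ± 0.35 and -1.28 ± 0.62 (SE), and the groups of SLC26A6 did not overlap. The mean ligand signal of SLC26A6, 93.8, was below 129, so it was tested because of its vehicle arrays. CDO1, cysteine dioxygenase, and SUOX, sulfite oxidase, are the entry and the last step of sulfate formation. They had log2 differences of -0.060 ± 0.19 and -0.10 ± 0.31 (SE) and were named after their values were seen.

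Of 10 measured sulfatases and sulfatase activators, 6 were higher and 4 lower, with a median log2 difference of 0.22. GALNS, a lysosomal sulfatase of keratan sulfate and chondroitin sulfate, read 84.0, 114 and 82.9 with vehicle and 434, 624 and 603 with the ligand, groups far apart. Its log2 difference was 2.37 ± 0.35 (SE), or 5.17-fold, at a limma adjusted p of 0.370. All 3 vehicle signals were below 129, so GALNS was tested only because of its ligand arrays and had to differ. STS, which removes sulfate from steroids and so opposes SULT2A1 and SULT1E1, read 1296, 2002 and 1284 with vehicle and 1067, 1215 and 1184 with the ligand. All 3 STS ligand values were below all vehicle values, with a log2 difference of -0.37 ± 0.24 (SE), and its other tested probe sets had -0.47 and -0.89. ARSA and ARSK, both arylsulfatases, had log2 differences of 0.79 ± 0.47 and -0.69 ± 0.45 (SE), with overlapping groups.

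Sulfotransferases of the Golgi, which draw on the same donor to modify proteins and glycans, gave 9 higher and 6 lower of 15 measured genes, with a median log2 difference of 0.079. CHST10, a sulfotransferase of glucuronic acid on glycans, had -1.41 ± 0.57 (SE) and CHST15, which adds a further sulfate to chondroitin sulfate, 0.63 ± 0.28 (SE). CHST7 and UST, both chondroitin sulfotransferases, had 0.47 ± 0.25 and 0.68 ± 0.38 (SE), and only CHST7 among the 15 had groups that did not overlap.

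Transcription factors known to act on sulfotransferase genes numbered 12 measured of 18 listed, with 5 higher, 7 lower and a median log2 difference of -0.054. PPARA, a receptor for fatty acids, read 4849, 3371 and 4620 with vehicle and 3115, 2548 and 3234 with the ligand, without overlap, at -0.52 ± 0.21 (SE). CEBPA, a factor of hepatocyte differentiation, had -0.57 ± 0.22 (SE), AHR, a receptor for aromatic compounds, -0.55 ± 0.32 (SE), and VDR, the vitamin D receptor, 1.13 ± 0.71 (SE), all with overlapping groups. NR1I3, the receptor CAR that responds to drugs, had 0.26 ± 0.24 (SE) and was named after its values were seen.

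Of 17 measured genes of steroid metabolism beside sulfation, STS counted again, 6 were higher and 11 lower, with a median log2 difference of -0.11. HSD17B6, an oxidoreductase of androgens, read 28781, 20990 and 25776 with vehicle and 18336, 14658 and 17623 with the ligand, without overlap, at -0.57 ± 0.18 (SE) and a limma adjusted p of 0.829. CYP7B1, the oxysterol hydroxylase, also had groups that did not overlap, at -0.59 ± 0.28 (SE), and its other tested probe set had -0.16. HSD17B11 and HSD11B1, oxidoreductases of androgens and of glucocorticoids, had 0.52 ± 0.28 and -0.38 ± 0.21 (SE), with overlapping groups.

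**Figure D5:**
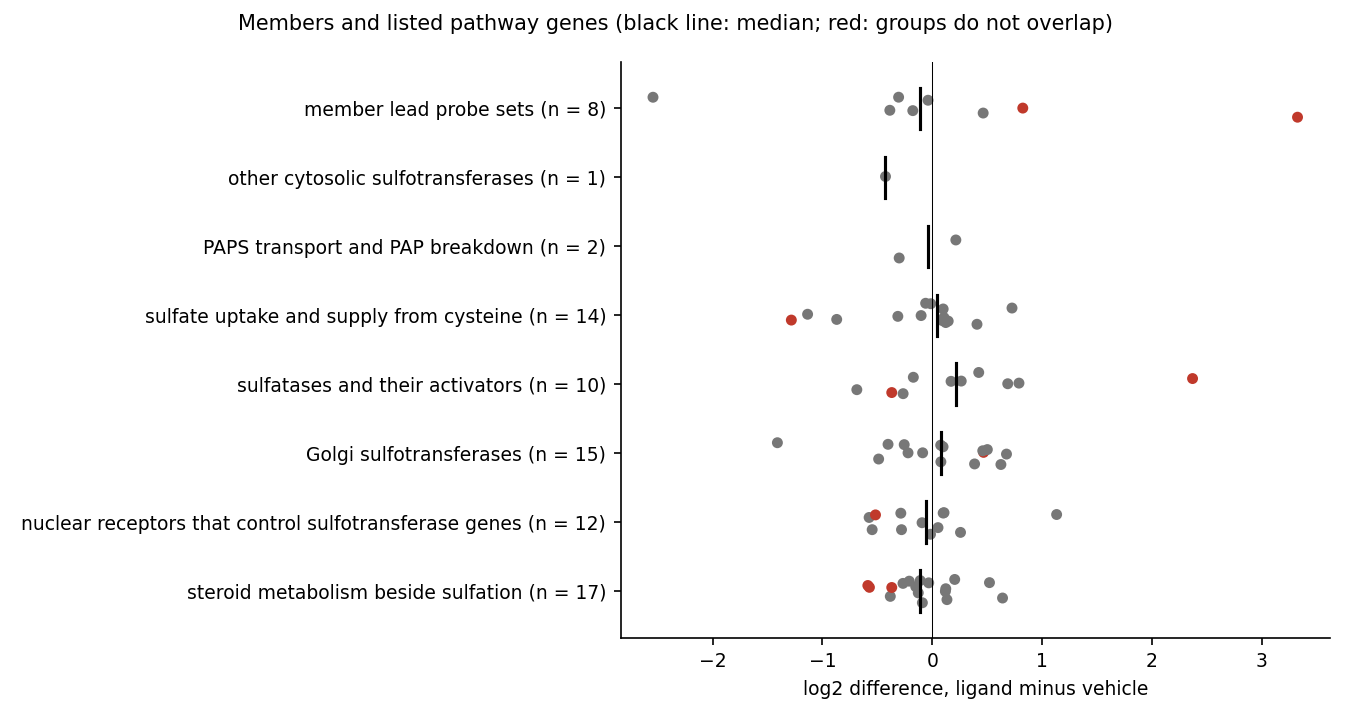
Log2 difference, ligand minus vehicle, of the brightest probe set of each of the 8 measured members and of the measured genes in each of 7 lists around sulfation (STS stands in 2 lists). Black lines mark medians, from -0.43 to 0.22 over the lists, red points have groups that do not overlap, and the members SULT1C2 and SULT1E1 and the sulfatase GALNS lie farthest from 0.

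Markers of other cells and states were summed in the same way. Endothelial markers had a higher mean with the ligand for 9 of 10 genes. They summed to 11102 to 13429 with vehicle and 11590 to 14958 with the ligand, and these ranges overlapped. The exception was VWF, a clotting protein of endothelium, which read 4667, 2129 and 1340 with vehicle and 157, 156 and 378 with the ligand and was named after its values were seen. Without VWF the sums did not overlap, at 8762 to 10378 with vehicle and 11434 to 14581 with the ligand. VWF was left out after its values were seen and was the only marker that was lower, so nothing is read from these sums. Cholangiocyte markers summed to 966 to 1626 and 721 to 2256. Stellate cell and fibroblast markers summed to 17027 to 26767 with vehicle and 32689 to 45713 with the ligand, without overlap, and 7 of 9 had a higher mean with the ligand. Most of this sum was DCN, with group means of 12289 and 18750, and COL3A1, with 4936 and 10982. Of the 9, only COL3A1 had all ligand arrays above all vehicle arrays. COL1A1 had all of them below, at a log2 difference of -0.22, while its other tested probe sets had 1.64 and 1.72. T and NK cell markers summed to 1051 to 1227 with vehicle and 879 to 1242 with the ligand. Neutrophil and blood markers summed to 2483 to 12463 and 1340 to 3149, with vehicle array 1 the highest. Most of the sum on that array was the haemoglobin gene HBB, at 11085 against 600 to 1255 on the other arrays. The neutrophil markers S100A8 and S100A9 were not high there, at 291 and 251. Acute phase genes, which liver regulates in inflammation, summed to 261576 to 371872 and 285119 to 315482. Among them SERPINA3, a protease inhibitor, read 1079, 2315 and 2503 with vehicle and 488, 493 and 521 with the ligand, and with LBP was 1 of 2 of the 10 whose groups did not overlap, both lower and both named after their values were seen. Transcripts of the sex chromosomes, 8 measured of 8 listed, summed to 23229 to 31839 and 20889 to 25917, and 0 of the 8 had groups that did not overlap. No measured marker in these lists was at a signal of 0, and the part of the fibroblast, endothelial and macrophage signals in the SULT1A1 and SULT1C2 differences was not tested.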

How the data were processed

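The authors deposited 1 intensity per probe set and array, a linear signal that the submitters' processing notes credit to MAS5. Its version and scaling target, and detection calls, were not given in the sources used here. The authors' scaling was kept and log2(signal + 16) was analysed. Of 54675 probe sets, 62 controls were set aside. A set was tested when its mean signal reached 129, the median over sets, which 27304 did. The 6 arrays entered 1 limma fit (version 3.58.1, R 4.3.3; lmFit, then eBayes with an intensity trend, two-sided), with no covariate, and p-values were adjusted by Benjamini-Hochberg over the 27304. SEs come from this fit, or from the fit without a filter for dim sets. Plots used matplotlib 3.10.9 in Python 3.11.15. The fit was tested on simulated data with independent noise. The simulation held no outlying array and no signal filter, so it does not bear on either.

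Probe sets were named from the platform's annotation where it gave 1 symbol (41097 sets), and a gene was represented by its brightest such set. The members and lists were chosen with earlier results of these data known. Named were all members with every probe set, up to 4 genes of each list around sulfation by smallest p, and the 5 sets most like the member with the largest difference. Of the marker lists, the summed signal was given. The number of arrays limits the precision, and each array was taken as a separate animal from its numbered title.

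Same-numbered arrays of the groups had correlations of deviations from their group means of 0.040, -0.031 and 0.070. Differently numbered arrays had -0.076 to 0.034. With so few arrays per group these values cannot show whether the arrays were paired. The numbers were treated as names. Alternatives were other pseudocounts, scalings, filters and variance models, the replicate number as a block, other probe sets of a gene, and leaving out each array.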

Additional observations from a re-analysis of the deposited data

How the results depend on the processing

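Under 13 of 15 alternatives limma called 0 probe sets across the array, as it did with all 6 arrays. It called 1 without vehicle replicate 2 (ACAA2) and 1 without ligand replicate 2 (SREBF1), so leaving out an array gave 0 to 1. At an unadjusted p under 0.05, the count ran from 871 of 13638 sets, with the filter at the 75th percentile, to 2891 of 54613 without a filter. The count of listed pathway genes called was 0 under every alternative run. With the replicate number as a block, 0 probe sets were called, 1707 had an unadjusted p under 0.05, and the member differences (0.82 for SULT1A1) are the same by construction in this balanced design, which says nothing of their stability. The count of 17 member probe sets that were higher was 8 to 11 with an array left out and 8 or 9 otherwise. The count with non-overlapping groups, 4, was 3 with median centring, where SULT1A1 set 238995_at overlapped, and 5 to 7 with an array left out, where fewer arrays make overlap rarer (7 without vehicle replicate 2 and without ligand replicate 2).

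Other probe sets moved a member's value by more than the within-group SD of its brightest set in 5 cases: 0.63 for SULT1A1, 1.12, 1.35 and -0.061 for SULT1C2, and -0.45 for PAPSS2. The second SULT1E1 set, at -0.35 against -2.54, moved by less than that SD, which was 2.35. With an array left out, the range was 0.80 to 0.87 for SULT1A1, 2.76 to 4.35 for SULT1C2, -3.70 to -0.66 for SULT1E1, 0.017 to 0.93 for SULT2A1, -0.59 to 0.10 for SULT1B1, -0.93 to 0.12 for SULT2B1, -0.18 to 0.044 for PAPSS1 and -0.27 to -0.043 for PAPSS2. Neither quantile normalization nor median centring moved the median of all tested probe sets by 0.1. The SULT1C2 and SULT2B1 signals are near the dim end of the array, which limits their fold.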

Other observations

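Ligand array 1, nearly empty of SULT1E1 signal, was also the lowest of the 6 arrays for a few listed genes, picked out here after their values were seen. Of the 70 measured genes of the sulfation lists, 15 were lowest on ligand array 1, against 18 on vehicle array 2, 14 on ligand array 2 and 5 to 9 on the other 3 arrays. The count of such genes thus does not single out that array. Of the member probe sets, 4 were lowest on ligand array 1 and 5 on vehicle array 2. On the first principal component ligand array 1 did lie apart, at -89.8 against 0.632 to 36.8. CHST10 read 49.0 on ligand array 1 against 144 to 550 on the other 5 arrays. NDST1, which starts the sulfation of heparan sulfate chains, read 447 against 936 to 1825, and NR2F1, a nuclear receptor that binds the same half-sites as other receptors, 435 against 885 to 1931. HS6ST2, a further heparan sulfotransferase too dim to be tested, was not low on ligand array 1. It read 43.9, 41.5 and 56.8 with vehicle and 182, 126 and 157 with the ligand, all 3 ligand arrays above all vehicle arrays. The same held for 5.99% of all probe sets tested. It was picked after its values were seen, and the other listed Golgi genes too dim to be tested, HS3ST1, CHST9 and GAL3ST1, had overlapping groups.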
